A study of Mus musculus with 16 samples.

Results

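Complex I of the mitochondrial respiratory chain, NADH:ubiquinone oxidoreductase, was followed through its nuclear subunit genes in growing mouse oocytes. The genes were those whose symbol begins with Ndufa, Ndufb, Ndufc, Ndufs or Ndufv, with the assembly factors named Ndufaf left out, and each was read by the probe set of highest mean signal among those that the platform annotation pairs with exactly 1 gene. That gave 36 genes (43 probe sets) of 18820 genes (21218 probe sets) tested. The mitochondrially encoded subunits were not analysed here.

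The 16 arrays came from 4 genotypes with 4 biological replicates each, all on a C57BL/6 background. In the double knockout both Hdac1 and Hdac2 were deleted, in the Hdac2 knockout only Hdac2, in the Hdac1 knockout only Hdac1, and the wild type carried neither deletion. The deletions used conditional alleles and Zp3-Cre, a transgene driven by an egg-coat gene promoter that works in oocytes during growth, so other cells of the ovary should keep both genes. The labels do not say whether wild type mice carried the Cre transgene or the unrecombined conditional alleles. Each array read RNA from 80 pooled oocytes of mice 12 days old, amplified before labelling. The labels name the roles of both deacetylases in the growing oocyte as the question. Values are deposited signals on a log scale taken as log2, a base inferred from their range and not stated, and every fold below rests on it. Signals of different probe sets do not rank genes by abundance, so levels are compared only between arrays for the same gene.

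Complex I takes electrons from NADH through a matrix arm that carries a flavin and a chain of iron-sulfur clusters, passes them to ubiquinone, and pumps protons through a membrane arm. Mammalian complex I is built from core subunits, which do the chemistry and are shared with bacteria, and from accessory subunits, which clad and stabilise them. The core of the matrix arm is nuclear encoded, and the core of the membrane arm is encoded by mitochondrial DNA. In growing oocytes mitochondria multiply, and oxidative metabolism of pyruvate is a main energy source.

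In the double knockout 18 of the 36 genes rose against wild type and 0 fell (limma, adjusted p under 0.05 over all probe sets tested). Over all tested probe sets 18.5% were higher and 19.8% lower. In each single knockout 0 of the 36 passed. The increases were modest, from 1.12-fold for Ndufb4 and Ndufb11 to 1.71-fold for Ndufa12, and 5 of the 18 reached the 1.4-fold limit that the study's design text uses. The share of all tested probe sets that reached this limit was not counted, so these 5 have no background beside them. The median difference over the 36 genes was 0.19 on the log2 scale, against -0.01 over all tested probe sets. Of the 36 genes 31 had a positive difference, and the 5 negative ones lay between -0.11 and -0.03. All but 1 of the 36 genes (35) had a mean signal at or above the median of tested probe sets, and among probe sets above that median 24.1% were higher. Among those brighter probe sets the median difference was -0.05. The balance of higher and lower over all genes leaned to lower under each scaling, by an amount that depended on the scaling. As deposited, 3924 tested probe sets were higher and 4198 lower. After subtraction of the array median from every value the split was 2895 and 6506, the median over all tested probe sets -0.10, and that over the complex I genes 0.0975; 12 complex I genes rose while Ndufs4 and Ndufv1 passed as lower. With quantile normalization it was 3382 and 5025, and 16 rose while Ndufs4 passed as lower. Array medians were 4.54 to 4.59 in the double knockout and 4.46 to 4.48 in wild type.

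Before single genes are described, the arrays need a word. Many of the 36 genes varied together between arrays of 1 genotype. Averaged over the 36 genes and set against the wild type mean, the double knockout arrays stood at 0.20, 0.18, 0.25 and 0.27 on the log2 scale, the Hdac2 knockout arrays at -0.06, 0.05, 0.07 and 0.00, the Hdac1 knockout arrays at 0.01, 0.06, 0.05 and -0.09, and the wild type arrays at 0.07, 0.03, -0.11 and 0.01. Every double knockout array was above every other array. Wild type replicate 3 was the lowest wild type array for 31 of the 36 genes, while it was the lowest for 27.3% of all tested probe sets. Likewise, Hdac2 knockout replicate 1 was the lowest of its group for 24 genes and Hdac1 knockout replicate 4 for 21. Each was the lowest for 27% of all tested probe sets. In the double knockout, replicate 1 was the lowest for 14 genes and replicate 2 for 16 (26% and 27% of all tested probe sets). Without wild type replicate 3 the count of higher genes was 16 in place of 18, the calls of Ndufb4 and Ndufb11 being lost, and the median difference was 0.14. In that fit 16.9% of all tested probe sets were higher. The medians over all tested probe sets of each array's differences from the wild type mean ran from -0.02 to 0.02, with no such spread. Plain array medians over all probe sets did differ, at 4.54 to 4.59 in the double knockout and 4.46 to 4.51 in the other genotypes.

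**Figure D1:**
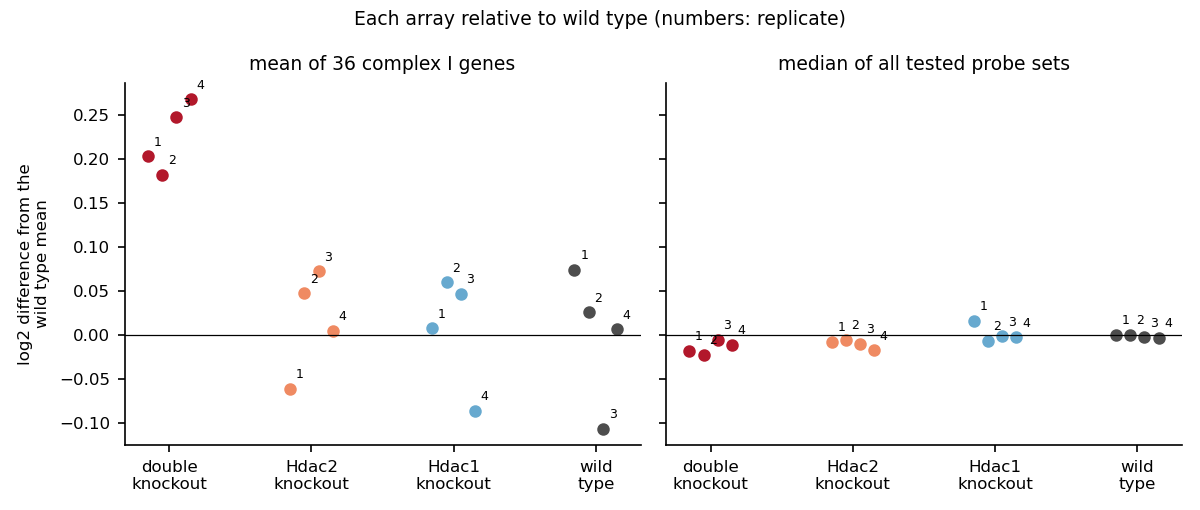
Left, the mean over the 36 complex I genes in each array; right, the median over all tested probe sets; both as log2 differences from the wild type mean, 1 point per array with its replicate number. The 4 double knockout points (0.18 to 0.27) lie above the 12 others on the left, where wild type replicate 3 (-0.11) is the lowest. No such step is seen on the right. Plain array medians, which were higher in the double knockout, are not drawn.

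Signal of Hdac1 was 7.72, 7.54, 7.61 and 7.75 in the double knockout, 9.69, 9.77, 9.55 and 9.56 in the Hdac2 knockout, 6.40, 6.53, 6.70 and 6.83 in the Hdac1 knockout, and 9.26, 9.26, 9.23 and 9.35 in wild type. Both genotypes labelled as lacking Hdac1 were thus below all arrays that should have it. The Hdac2 probe set gave 10.85, 10.81, 10.89 and 10.95 in the double knockout and 10.95, 11.01, 11.01 and 10.99 in the Hdac2 knockout, against 11.16, 11.05, 11.14 and 11.16 in the Hdac1 knockout and 11.07, 11.02, 11.18 and 11.08 in wild type. That small gap does not check the Hdac2 deletion, and the exons that this probe set reads are unknown here. The oocyte markers averaged 11.26 to 11.29 in double knockout arrays and 11.36 to 11.38 in wild type arrays, with 0 of 14 higher and 4 lower (Mos, Figla, Ddx4 and Kit). Over all tested probe sets 18.5% were higher and 19.8% lower.

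Granulosa markers averaged 4.94 to 5.17 in double knockout arrays and 4.92 to 5.09 in wild type arrays, while theca and stroma markers averaged 4.005 to 4.07 in the double knockout and 3.94 to 4.02 in wild type. Blood, immune and endothelial markers averaged 4.53 to 4.62 in the double knockout and 4.69 to 4.83 in wild type. Of 9 granulosa markers 2 were higher and 2 lower. The shares over all tested probe sets, to be set beside this and the following marker counts, were 18.5% higher and 19.8% lower. Gja1 was at 6.39 in the double knockout and 5.65 in wild type (limma adjusted p = 0.000263) and Inha at 4.83 in the double knockout and 4.24 in wild type (0.021). Nr5a2 was at 8.74 in the double knockout and 9.82 in wild type, and Kitl at 4.40 in the double knockout and 4.78 in wild type. The 5 others, Amh, Fshr, Foxl2, Inhbb and Hsd17b1, did not pass. Of 8 theca and stroma markers 1 was higher (Acta2, by 0.31) and 0 lower. Of 6 blood, immune and endothelial markers Cd68 was higher by 0.38, and Pecam1 was lower, at 7.04 in the double knockout and 8.42 in wild type. The lower mean of that list in the double knockout rests on Pecam1, since the 4 others differed by -0.02 to 0.07. No probe set is listed at 0, and the part of these cells in the complex I differences was not tested. In RNA from pooled and amplified cells, a change in RNA per oocyte and a change in the mix of cells cannot be told apart.

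Promoter sequence is shown for 5 genes. Motifs of the NRF1, YY1 and ETS families were searched because these transcription factors are known regulators of respiratory genes. Their part in the differences was not tested. Windows of 250 bases before to 50 bases after the annotated start were available from RefSeq (assembly GRCm38.p6) for 32 of the 36 genes; Ndufa2, Ndufa4l2, Ndufb9 and Ndufs1 were without one. An NRF1-type motif (GCGCA, any base, then GCGC, both strands) was present for 7 of 32 genes (21.9%) and in 4.6% of all 32851 windows of that length. A YY1-type motif (AANATGGCG, both strands) was present for 7 of 32 genes (21.9%) and in 2.38% of all windows. An ETS-type motif (CCGGAAGT, both strands) was present for 1 of 32 genes, Ndufs3, and in 3.89% of all windows. No matches of different motifs overlapped. Mean GC content was 58.1% in the complex I windows and 53.8% in all windows.

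Both of the commoner motifs occurred among the genes that rose and among those that did not pass. The NRF1-type motif was present for 4 of 17 risen genes with a window (Ndufa11, Ndufa5, Ndufa6 and Ndufb4) and for 3 of 15 others (Ndufa8, Ndufs5 and Ndufs6). The YY1-type motif was present for 4 of 17 risen genes (Ndufa7, Ndufb11, Ndufc1 and Ndufs7) and for 3 of 15 others (Ndufa9, Ndufs4 and Ndufs6). The windows below pair a risen gene with one that did not pass for each of these motifs, and add Ndufa12, which had the largest increase and no match; capitals mark the match, and each sequence runs in the direction of transcription.
Ndufa11, rose, chr17:56717512-56717811, plus strand: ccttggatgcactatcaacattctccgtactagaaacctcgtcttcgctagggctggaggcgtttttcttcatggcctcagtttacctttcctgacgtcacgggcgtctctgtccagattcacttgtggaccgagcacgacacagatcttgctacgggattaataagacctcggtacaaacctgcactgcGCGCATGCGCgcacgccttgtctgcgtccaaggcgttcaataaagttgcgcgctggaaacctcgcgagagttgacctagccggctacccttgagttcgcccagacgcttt
Ndufa8, did not pass, chr2:36049289-36049588, minus strand: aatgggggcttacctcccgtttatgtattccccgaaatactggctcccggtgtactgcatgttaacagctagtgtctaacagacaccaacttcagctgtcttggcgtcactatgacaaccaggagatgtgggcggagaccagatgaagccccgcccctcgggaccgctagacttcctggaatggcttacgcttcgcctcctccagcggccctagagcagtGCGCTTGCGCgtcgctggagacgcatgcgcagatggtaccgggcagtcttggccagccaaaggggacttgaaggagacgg
Ndufs7, rose, chr10:80249199-80249498, plus strand: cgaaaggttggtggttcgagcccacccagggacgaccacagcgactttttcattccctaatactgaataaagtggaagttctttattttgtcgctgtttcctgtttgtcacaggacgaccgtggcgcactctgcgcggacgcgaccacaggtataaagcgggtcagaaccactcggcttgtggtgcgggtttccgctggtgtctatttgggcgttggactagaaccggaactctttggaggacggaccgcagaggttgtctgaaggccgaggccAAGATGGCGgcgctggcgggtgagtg
Ndufs4, did not pass, chr13:114388045-114388344, minus strand: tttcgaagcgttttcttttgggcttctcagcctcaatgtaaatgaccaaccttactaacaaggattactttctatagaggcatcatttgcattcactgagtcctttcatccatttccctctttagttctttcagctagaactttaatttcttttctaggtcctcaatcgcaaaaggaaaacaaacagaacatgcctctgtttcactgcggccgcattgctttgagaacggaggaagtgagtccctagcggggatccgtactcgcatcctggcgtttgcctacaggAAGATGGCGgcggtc
Ndufa12, rose, chr10:94198785-94199084, plus strand: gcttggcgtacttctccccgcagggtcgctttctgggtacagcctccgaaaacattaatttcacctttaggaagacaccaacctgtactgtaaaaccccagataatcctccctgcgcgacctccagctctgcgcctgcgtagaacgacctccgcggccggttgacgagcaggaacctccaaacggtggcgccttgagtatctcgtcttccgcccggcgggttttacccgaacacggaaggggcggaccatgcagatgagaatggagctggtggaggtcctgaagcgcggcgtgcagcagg
In Ndufa11 and Ndufa8 the match begins at offsets of -60 and -30 bases from the annotated start (negative is upstream), and in Ndufs7 and Ndufs4 at 24 and 35 bases. A match describes letters in a window and shows no binding.

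Among the core subunits of the matrix arm 2 of 6 measured rose and 4 did not pass. Ndufs7, which holds the last iron-sulfur cluster before ubiquinone, averaged 8.14 ± 0.10 in the double knockout and 7.77 ± 0.12 in wild type (SD, n = 4 each), 1.3-fold higher (limma adjusted p = 0.000305). Ndufv2, an iron-sulfur subunit at the NADH-oxidising tip, averaged 10.03 ± 0.08 in the double knockout and 9.75 ± 0.05 in wild type, 1.21-fold higher (limma adjusted p = 0.000777). Its partner at the tip, Ndufv1, which binds NADH and the flavin, was at 8.82 ± 0.10 in the double knockout and 8.93 ± 0.03 in wild type, a difference of -0.11 with a 95% interval of -0.23 to 0.01. Ndufs1, which carries several iron-sulfur clusters, differed by -0.07 (interval -0.23 to 0.08) and Ndufs3 by 0.10 (-0.04 to 0.24). Ndufs8, the remaining iron-sulfur subunit, was at 8.28 ± 0.18 in the double knockout and 7.98 ± 0.17 in wild type and just missed the threshold (0.31 on the log2 scale, limma adjusted p = 0.051). Ndufs8 passed as higher in 10 of 24 alternative settings, 6 of them fits without 1 array.

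Accessory subunits of the matrix arm rose in 5 of 9 cases, and the gene with the largest increase of all 36 was here. Ndufa12, a gene mutated in some cases of Leigh syndrome in humans, gave 9.44, 9.43, 9.63 and 9.55 in the double knockout, 8.83, 8.91, 8.94 and 8.59 in the Hdac2 knockout, 8.78, 8.68, 8.75 and 8.55 in the Hdac1 knockout, and 8.79, 8.71, 8.69 and 8.74 in wild type. The 4 double knockout arrays were above all 12 others, which overlapped with each other. The increase over wild type was 1.71-fold (0.78 ± 0.08 SE on the log2 scale, limma adjusted p = 4.92e-07).

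Ndufa5, a small subunit that packs against the arm, gave 11.14, 11.14, 11.22 and 11.22 in the double knockout, 10.64, 10.72, 10.80 and 10.69 in the Hdac2 knockout, 10.63, 10.66, 10.66 and 10.62 in the Hdac1 knockout, and 10.77, 10.71, 10.62 and 10.65 in wild type. No double knockout array came near the others. Its increase was 1.4-fold (0.49 ± 0.05 SE, limma adjusted p = 8.98e-07). Ndufv3, a small subunit of the NADH-oxidising tip, gave 9.26, 9.12, 9.16 and 9.26 in the double knockout, 8.61, 8.81, 8.85 and 8.55 in the Hdac2 knockout, 8.52, 8.72, 8.77 and 8.59 in the Hdac1 knockout, and 8.79, 8.61, 8.40 and 8.70 in wild type. Here too the double knockout stood apart while the other 3 genotypes overlapped, and the increase was 1.49-fold (0.58 ± 0.09 SE, limma adjusted p = 5.71e-05).

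The remaining risen accessory subunits of the matrix arm were Ndufa7 (just under 1.4-fold, limma adjusted p = 0.000613) and Ndufa6, an LYR-motif protein that docks the mitochondrial acyl carrier protein (1.2-fold, limma adjusted p = 0.00677, and 0.0616 after array centring). Ndufs6, a zinc-binding subunit, was at 11.02 ± 0.02 in the double knockout and 10.81 ± 0.14 in wild type, and Ndufa9, which binds a nicotinamide nucleotide, at 11.40 ± 0.04 in the double knockout and 11.28 ± 0.0038 in wild type. In both genes all 4 double knockout arrays were above all 12 others, yet neither passed (limma adjusted p = 0.081 and 0.0509). Ndufa2 differed by 0.04 (95% interval -0.06 to 0.14). Ndufs4, whose loss causes a Leigh-like encephalopathy in mice, gave 10.96, 11.01, 11.09 and 11.06 in the double knockout, against 11.13, 11.11, 11.11 and 11.19 in wild type, values shown because it was the 1 gene with all double knockout arrays below all wild type arrays. That difference of -0.10 did not pass (limma adjusted p = 0.116), but it passed as lower after array centring, with quantile normalization and with a spread that follows mean signal. Ndufv1 passed as lower with centring alone among these.

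Accessory subunits of the proximal membrane arm, next to the matrix arm, rose in 4 of 8 cases. Ndufa11, a membrane subunit at the contact with complex III in supercomplexes, gave 11.01, 10.92, 11.12 and 11.14 in the double knockout, 10.15, 10.40, 10.47 and 10.39 in the Hdac2 knockout, 10.43, 10.40, 10.36 and 10.21 in the Hdac1 knockout, and 10.55, 10.57, 10.28 and 10.42 in wild type. All double knockout arrays were higher than every other array, and the increase was 1.51-fold (0.59 ± 0.08 SE, limma adjusted p = 2.11e-05). The other probe set of Ndufa11 differed by 0.63.

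Ndufa3, a single-pass membrane subunit, gave 8.18, 8.23, 8.28 and 8.18 in the double knockout, 7.60, 7.79, 7.92 and 7.88 in the Hdac2 knockout, 7.51, 7.60, 7.79 and 7.40 in the Hdac1 knockout, and 7.77, 7.77, 7.59 and 7.61 in wild type. Its increase was 1.45-fold (0.54 ± 0.08 SE, limma adjusted p = 7.96e-05), with no overlap between the double knockout and the rest. Ndufa1, an X-linked membrane subunit that is essential for assembly, gave 11.53, 11.50, 11.61 and 11.65 in the double knockout, 11.25, 11.25, 11.31 and 11.19 in the Hdac2 knockout, 11.09, 11.31, 11.23 and 11.14 in the Hdac1 knockout, and 11.19, 11.21, 11.09 and 11.20 in wild type. The increase was 1.32-fold (0.40 ± 0.06 SE, limma adjusted p = 3.05e-05), again with the double knockout above all 12 other arrays.

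Ndufc1 gave 8.22, 8.29, 8.23 and 8.55 in the double knockout, 7.77, 7.83, 8.03 and 7.77 in the Hdac2 knockout, 8.06, 8.08, 7.95 and 7.82 in the Hdac1 knockout, and 8.13, 8.12, 7.83 and 7.92 in wild type. It rose 1.25-fold (0.32 ± 0.09 SE, limma adjusted p = 0.00971), and its dimmer probe set differed by 0.50 (limma adjusted p = 0.00631). After array centring Ndufc1 no longer passed (limma adjusted p = 0.0548). The other proximal genes did not pass. Ndufa10, which resembles a nucleoside kinase, differed by 0.12 (95% interval 0.01 to 0.23), Ndufs5, a subunit on the intermembrane-space face, by 0.12 (-0.11 to 0.35), Ndufc2 by 0.06 (-0.07 to 0.19) and Ndufa8, also on that face, by -0.03 (-0.18 to 0.11).

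Accessory subunits of the distal membrane arm rose in 6 of 11 cases, and all 11 differences were positive. The median of this group, 0.16, was the lowest of the 4 structural groups, against 0.27 for matrix arm accessory subunits, 0.22 for the proximal arm and 0.19 for the core; these group medians were not tested against each other. Ndufb10, a subunit with disulfide bonds on the intermembrane-space face, averaged 9.60 ± 0.09 in the double knockout and 9.18 ± 0.17 in wild type (SD, n = 4 each), 1.34-fold higher (limma adjusted p = 0.000629). Ndufb8 rose 1.25-fold (limma adjusted p = 0.000579), Ndufb9, another LYR-motif protein, 1.18-fold (0.0052), and Ndufb6 1.15-fold (0.00563). After array centring Ndufb9 and Ndufb6 no longer passed (limma adjusted p = 0.0699 and 0.101).

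Ndufb11, an X-linked subunit, and Ndufb4 rose 1.12-fold each, close to the threshold (limma adjusted p = 0.0224 and 0.049). The dimmer probe set of Ndufb11 differed by 0.06 (limma adjusted p = 0.511), while both probe sets of Ndufb4 differed by 0.16. Ndufb4 lost its call in 11 of the 16 fits that left out 1 array. Ndufb7 differed by 0.17 (95% interval 0.01 to 0.34), Ndufb5 by 0.13 (0.00 to 0.26), Ndufab1, the mitochondrial acyl carrier protein, by 0.10 (-0.06 to 0.26), Ndufb3 by 0.05 (-0.12 to 0.22) and Ndufb2 by 0.01 (-0.17 to 0.18), and none of these 5 passed.

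Ndufa4, first isolated with complex I and since placed in complex IV, gave 11.47, 11.42, 11.45 and 11.41 in the double knockout, 11.12, 11.20, 11.05 and 11.19 in the Hdac2 knockout, 11.02, 11.03, 11.03 and 11.05 in the Hdac1 knockout, and 11.23, 11.08, 10.89 and 11.14 in wild type. It rose 1.27-fold (0.35 ± 0.06 SE, limma adjusted p = 0.000257), with all double knockout arrays above the rest. Its paralog Ndufa4l2, known as a hypoxia-induced gene, had a mean of 4.91 over all arrays, below the median of tested probe sets, and its double knockout arrays (4.75 to 5.09) lay within the range of the other genotypes (4.45 to 5.67). Its difference from wild type was -0.06, with a 95% interval of -0.46 to 0.34.

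**Figure D2:**
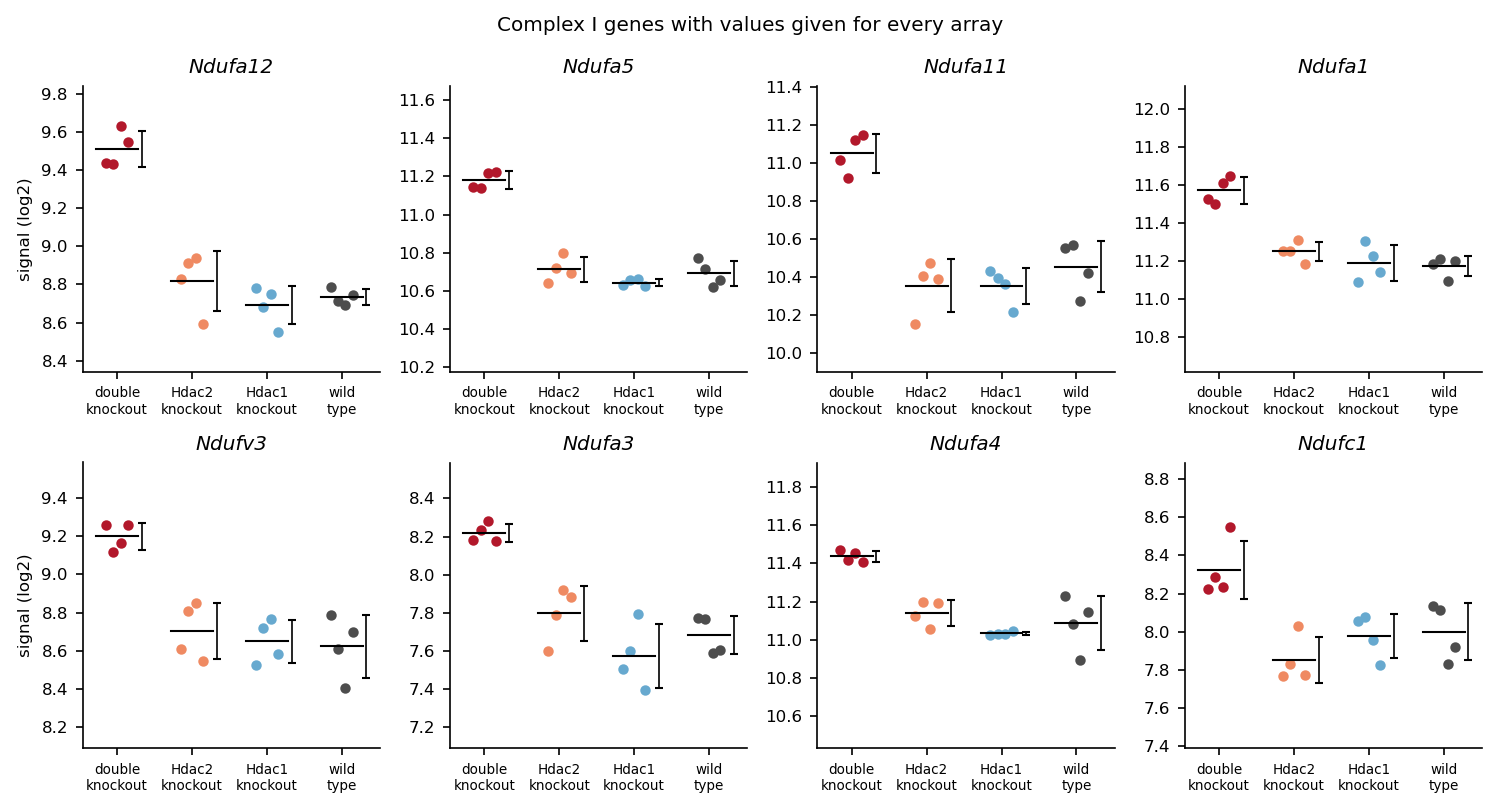
Signal on the log2 scale (vertical axis, not starting at 0) of 8 complex I genes in each array, with 4 points per genotype, the group mean as a line and the SD over 4 arrays as a bar. In all 8 panels the 4 double knockout points lie above the 12 other points, which overlap between genotypes except that the Hdac1 knockout lies below the Hdac2 knockout for Ndufa4.

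Taking the 36 genes together, the 4 double knockout arrays were above the 4 wild type arrays in 20 genes, which 16.9% of all tested probe sets also showed, and below them in 1. The share of all tested probe sets on the lower side was not counted. They were above all 12 other arrays in 16 genes, against 11.3% of tested probe sets. The double knockout was also compared with each single knockout. Signal of Hdac1 itself averaged 7.66 in double knockout arrays, against 6.61 in Hdac1 knockout arrays, so it differed between these groups too. Against the Hdac1 knockout 19 genes rose and 0 fell (18.7% of tested probe sets were higher, and 4256 of 21218 lower), with a median difference of 0.19. Against the Hdac2 knockout 19 rose and 0 fell (16.8% were higher, and 3589 of 21218 lower), with a median of 0.17. These comparisons share the double knockout arrays with the one against wild type. Of the 18 genes that rose against wild type 17 passed against both single knockouts, the exception being Ndufb4. Ndufa9 and Ndufb5 rose against the Hdac1 knockout, and Ndufa9 and Ndufab1 against the Hdac2 knockout, without having passed against wild type.

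The single knockouts gave no call among these genes. In the Hdac2 knockout 0 of the 36 passed, while 5.59% of all tested probe sets did, and in the Hdac1 knockout 0 passed, while 0.0707% of all tested did. The differences of the 36 genes ran from -0.28 to 0.19 in the Hdac2 knockout (median 0.02) and from -0.14 to 0.25 in the Hdac1 knockout (median 0.00). At an unadjusted p under 0.05, the Hdac2 knockout had 2 and the Hdac1 knockout 2 of the 36 genes. The share of all tested probe sets at this unadjusted limit was not counted, so these counts have no background beside them. The smallest adjusted p in either was that of Ndufa10 in the Hdac2 knockout, at 10.94 ± 0.06 against 10.78 ± 0.07 in wild type (SD, n = 4 each; 0.16 ± 0.05 SE, limma adjusted p = 0.099). It passed with dim probe sets left out and with a spread that follows mean signal. Between the Hdac1 knockout and the Hdac2 knockout 0 of the 36 genes passed, while 5.78% of tested probe sets did. An unadjusted p under 0.05 was found for 3 of the 36, again without a share over all tested probe sets.

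The interaction asks whether the double knockout departs, in log2 units, from what the changes of both single knockouts add up to. It was above 0 in 13 of the 36 genes and below 0 in 0 (limma, adjusted p under 0.05), while 11.7% of tested probe sets were above 0. Of the 21218 tested probe sets 2460 were below 0 at that limit. Ndufa11 had the largest value at 0.80 ± 0.12 SE, followed by Ndufa12 (0.74 ± 0.11), Ndufa3 (0.53 ± 0.12) and Ndufa5 (0.52 ± 0.07). Of the 13 genes 11 were among the 18 that rose against wild type. The other 2, Ndufa9 and Ndufab1, had no call against wild type. Ndufb10 and Ndufb4, in contrast, rose in the double knockout with interaction values of 0.06 (95% interval -0.19 to 0.31) and 0.00 (-0.18 to 0.18). Ndufb10 was at 9.38 ± 0.12 in the Hdac2 knockout and 9.35 ± 0.08 in the Hdac1 knockout, against 9.18 ± 0.17 in wild type. Ndufb4 was at 10.80 ± 0.09 in the Hdac2 knockout and 10.93 ± 0.09 in the Hdac1 knockout, against 10.79 ± 0.07 in wild type.

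**Figure D3:**
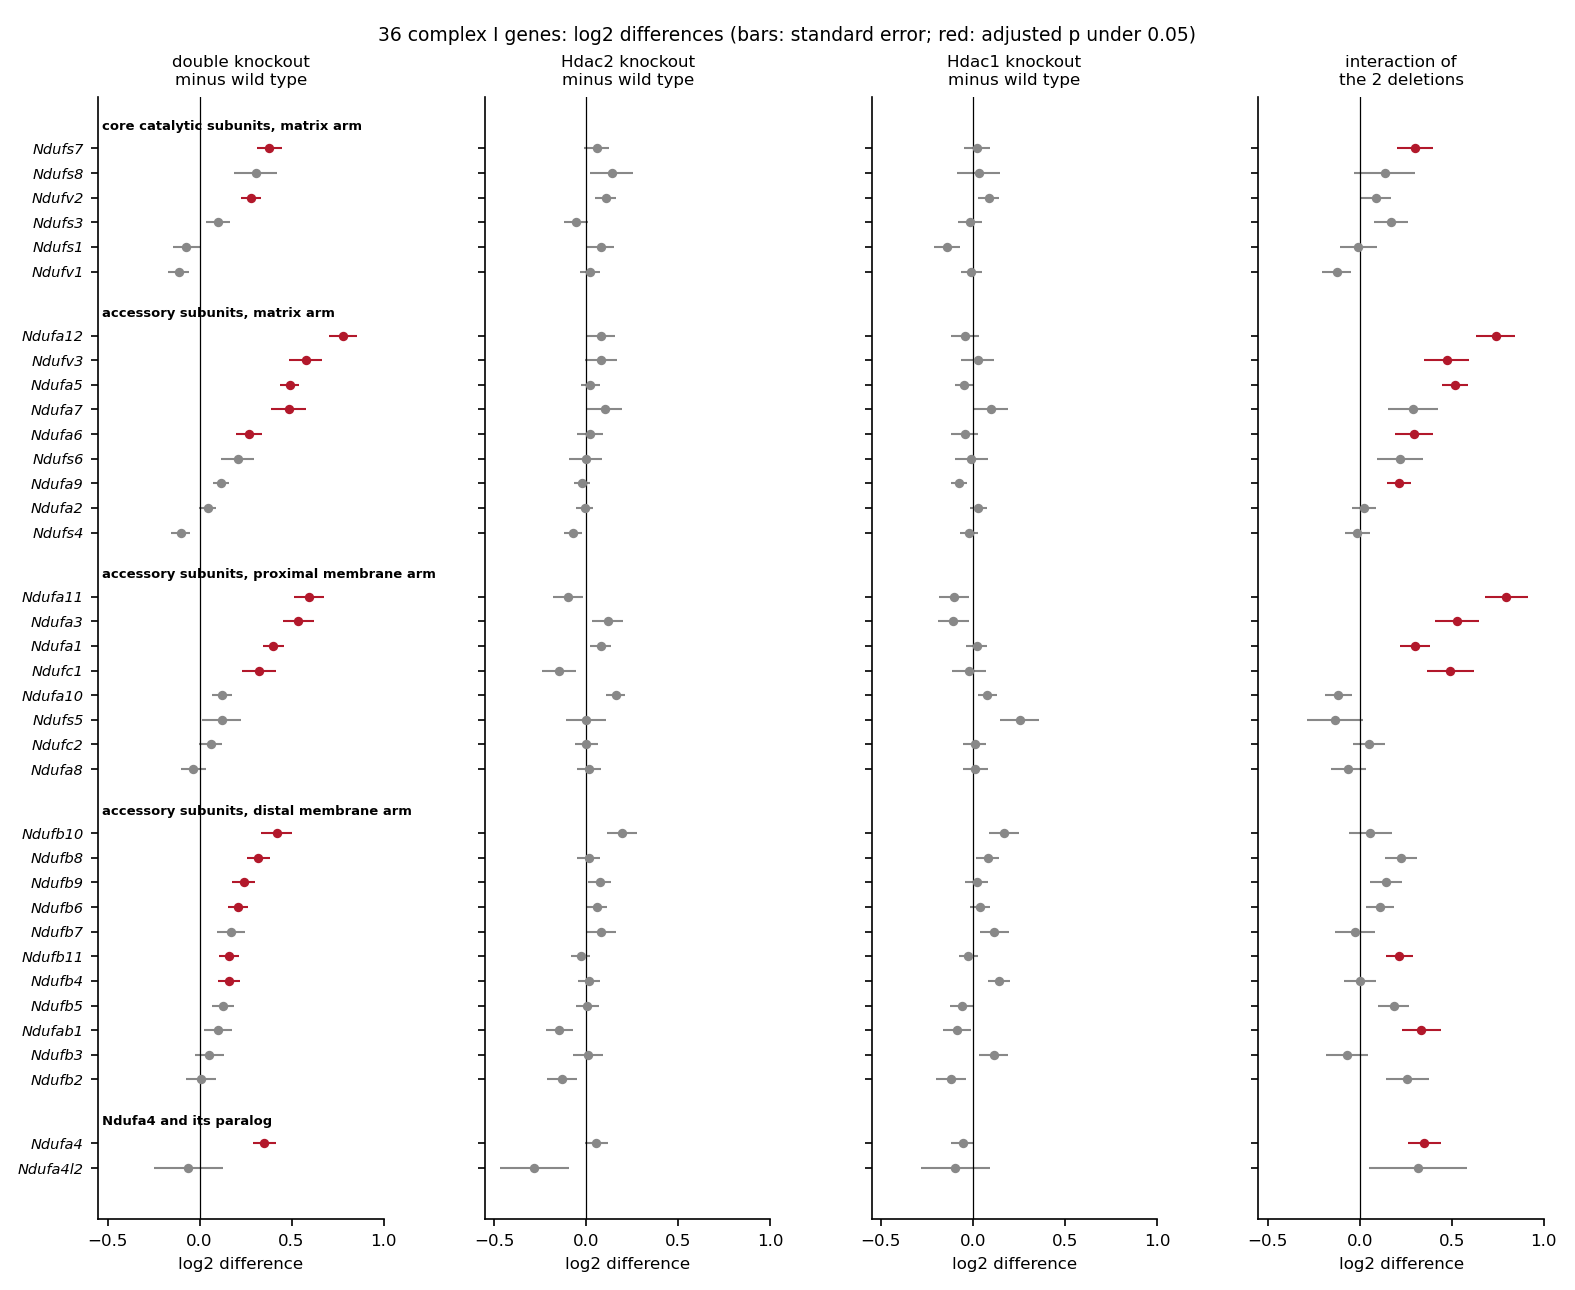
Log2 differences of the 36 complex I genes (rows, grouped by place in the complex) for the double, Hdac2 and Hdac1 knockouts minus wild type, and for the interaction; points are limma estimates, bars 1 standard error, and red marks an adjusted p under 0.05. Red points fill 18 rows of the first panel and 13 of the last, with 0 in the panels of the single knockouts.

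Other genes of the pathway were counted in the same fit, and lists were not tested against each other. Of 20 measured complex I assembly factors, which build the complex and leave it, 2 rose, 6 fell and 12 did not pass in the double knockout, where 18.5% of all tested probe sets were higher and 19.8% lower; the median difference was -0.13. Ndufaf1, which joins membrane arm modules, fell by 0.58 ± 0.10 SE (6.28 ± 0.14 in the double knockout against 6.86 ± 0.21 in wild type; limma adjusted p = 0.000186), and Tmem126a fell by 0.59 ± 0.10 (limma adjusted p = 0.000231). Ecsit, a partner of Ndufaf1 in the assembly complex, rose 1.48-fold and Tmem126b, of the same assembly complex, 1.24-fold (limma adjusted p = 0.00329 and 0.00443). The other 4 that fell, named after their values were seen, were Tmem186, Ndufaf7, Ndufaf5 and Lyrm2.

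Of 36 measured nuclear subunits of complexes II to V, 26 rose, 2 fell and 8 did not pass, beside the same shares over all probe sets, with a median of 0.24. The 2 with the smallest adjusted p were Uqcr10 and Cyc1 of complex III, which rose 1.53-fold and 1.58-fold. The 2 that fell were Atp5g2, a gene for the membrane ring subunit of ATP synthase, by 0.29 and Sdha, the flavin subunit of complex II, by 0.24. Atp5g1 and Atp5g3, also genes for that ring subunit, rose by 0.60 and 0.41 (limma adjusted p = 3.92e-05 and 7.17e-05). Of 14 regulators of respiratory gene transcription 5 rose, 3 fell and 6 did not pass, with a median of 0.02, again beside 18.5% higher and 19.8% lower over all tested probe sets. Yy1 rose 1.41-fold, while Tfam, which packages mitochondrial DNA, fell by 0.53. Pprc1, a coactivator, rose 1.38-fold and Hcfc1, a coregulator, fell by 0.27. Nrf1 and Gabpa, named here because their families' motifs were searched, did not pass. Nrf1 differed by -0.24 (limma adjusted p = 0.0623), and Gabpa by -0.08 (0.258). Among the other Gabp genes of the list, Gabpb1 rose 1.21-fold (limma adjusted p = 0.00152) and Gabpb2 did not pass (0.203).

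**Figure D4:**
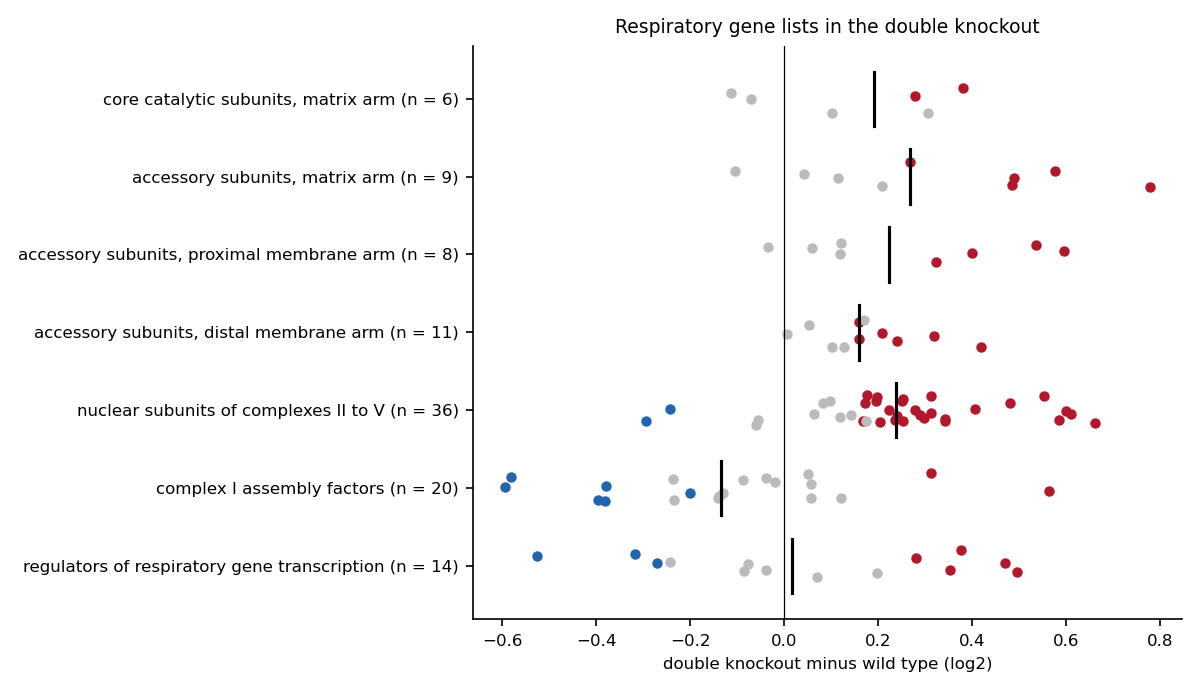
Double knockout minus wild type on the log2 scale (horizontal axis) for each measured gene of 4 complex I groups, complexes II to V, complex I assembly factors and transcription regulators; red and blue mark genes higher and lower at an adjusted p under 0.05, and the black bar is the list's median. The medians of the complex I groups lie between 0.16 and 0.27 and that of the assembly factors at -0.13.

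The genes whose pattern was most like the mean of the 36 were sought among 8126 genes with 1 probe set of at least median signal, by Pearson r over the 16 arrays, which share genotype and array effects. They were Rps27l (r = 0.968), Vps29 (r = 0.966) and Serf2 (r = 0.955), whose differences between the double knockout and wild type were 0.50, 0.69 and 0.32 on the log2 scale (limma adjusted p = 0.000487, 6.48e-07 and 0.00458). These r values describe the arrays and were not tested.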

How the data were processed

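The arrays were Affymetrix Mouse 1.1 ST. The authors deposited 1 value per probe set and array, on a log scale taken here as log2 (2.07 to 12.89), made with MAS5 per the submitters' processing notes; the design text also names GeneSpring, SAM and EASE. The genome build and the way these were combined were not given in the sources used here. Genes were named from the platform annotation. Of 35556 probe sets, 21218 had 1 gene symbol and were tested, 1881 had several and 12457 had none.

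From the deposited values, limma 3.58.1 (R 4.3.3) fitted a mean per genotype over all 16 arrays (12 residual degrees of freedom) and 7 contrasts, with Benjamini-Hochberg adjustment over the tested probe sets. The interaction was double knockout minus Hdac1 knockout minus Hdac2 knockout plus wild type. The script was tested on simulated data. The number of arrays limits the precision. The labels call the replicates biological, so p-values measure the spread between pools of oocytes. Values in every array were given for the complex I genes with the 6 smallest adjusted p higher in the double knockout and the 6 smallest in the interaction. They were also given for Ndufs4, Hdac1 and Hdac2. From the assembly factors, complexes II to V and the regulators, the 2 genes per direction with the smallest adjusted p were named without array values, and some others beside them. The complex I genes and all lists were chosen with earlier results of these data known. Alternatives were array centring, quantile normalization, dim probe sets left out, all probe sets, the mean over a gene's probe sets, a 1.4-fold limit, a trend in the spread, only the groups compared, a replicate block and leaving out each array.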

Additional observations from a re-analysis of the deposited data

Results flagged for a closer look

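In 4 of 144 groups of 4 arrays, 1 array stood apart from the other 3 by more than the 95% critical value of Dixon's ratio of gap to range, which chance gives in about 1 group in 20. Ndufb4 was at 10.69 in wild type replicate 3 and at 10.81 to 10.83 in the other wild type arrays (ratio 0.839). Ndufs6 was at 10.60 in the same array and at 10.86 to 10.91 in the others (0.845). Ndufb9 was at 10.55 in Hdac1 knockout replicate 1 and at 10.71 to 10.73 in the others (0.884). Ndufv2 was at 9.93 in Hdac2 knockout replicate 2 and at 9.83 to 9.84 in the others (0.849).

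In 13 genes, with values as deposited, the effect of one deletion differed with the presence of the other, by the interaction in limma. Beyond Ndufa11 (0.80, adjusted p = 0.000121), Ndufa12 (0.74, 0.000114), Ndufa3 (0.53, 0.00417) and Ndufa5 (0.52, 7.3e-05), these were Ndufc1 (0.49, 0.0108), Ndufv3 (0.47, 0.0112), Ndufa4 (0.35, 0.00845), Ndufab1 (0.34, 0.0325), Ndufs7 (0.30, 0.034), Ndufa1 (0.30, 0.0127), Ndufa6 (0.29, 0.0464), Ndufb11 (0.22, 0.0445) and Ndufa9 (0.21, 0.0206).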

How the results depend on the processing

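Under the alternatives run, 0 called results changed sign, while values that did not pass did: 31 of the 36 differences between the double knockout and wild type were positive as deposited, 27 with centring, and Ndufb2 ran from -0.05 to 0.07 with 1 array left out. Of the gene counts and medians per comparison, 470 were classed as unchanged and 21 as moved. Counts classed as unchanged still varied, such as that of the interaction when 1 array was left out. Of the single-gene differences between the double knockout and wild type, 815 kept their call or lack of one, 25 lost a call and 23 gained one. With at least 1.4-fold required, 5 genes were higher in the double knockout against wild type, 5 against the Hdac1 knockout and 3 against the Hdac2 knockout, and the interaction had 5. Shares over all tested probe sets were not counted at that limit. With each array centred, 12 genes were higher and 2 lower against the Hdac1 knockout and 11 and 2 against the Hdac2 knockout, 2 were lower against wild type, and the medians were 0.113, 0.109 and 0.0975. With quantile normalization 1 gene was lower in each of these 3 comparisons. Over all tested probe sets 13.6% were higher in the double knockout against wild type with centring, and 15.9% with quantile normalization. Shares over all tested probe sets were not counted under the alternatives for the other comparisons or the interaction. The interaction was above 0 in 9 genes with centring, where Ndufa6, Ndufa9, Ndufb11 and Ndufs7 lost their call. It was above 0 in 9 with quantile normalization, where Ndufa6, Ndufa9, Ndufab1 and Ndufb11 lost theirs. A trend in the spread gave 1 lower in the double knockout against wild type (Ndufs4) and 1 higher in the Hdac2 knockout (Ndufa10). Without dim probe sets Ndufa10 was likewise the 1 gene higher in the Hdac2 knockout, and Ndufv1 the 1 lower in the double knockout against the Hdac2 knockout. The cause of these changes was not tested.

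Leaving out 1 array gave 16 to 19 higher and 0 lower in the double knockout against wild type (median 0.138 without wild type replicate 3 to 0.228 without wild type replicate 1), 17 to 21 higher against the Hdac1 knockout, 14 to 19 higher and 0 to 2 lower against the Hdac2 knockout (2 without double knockout replicate 1), 0 to 1 higher between the Hdac1 and Hdac2 knockouts (1 without Hdac2 knockout replicate 3), and 9 to 15 for the interaction. In these fits 16.9% to 18.5% of all tested probe sets were higher in the double knockout against wild type. Ndufb4 lost its call in 16 of 24 settings and Ndufb11 in 5. Replicate numbers did not pair the arrays (correlations of deviations -0.15 to 0.09 over 24 pairs). The replicate block gave 18 higher against wild type, where 17.9% of all tested probe sets were higher, and 9 for the interaction.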

Other observations

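By chromosome, all 5 complex I genes on chromosome 17 (Ndufa7, Ndufa11, Ndufb10, Ndufv2 and Ndufv3) rose in the double knockout, where 21.8% of 1010 tested probe sets were higher, and so did both on the X chromosome (Ndufa1 and Ndufb11), where 24.5% of 784 were. Both on chromosome 15 and the 1 on chromosome 16 also rose (16.2% and 17.2% of tested probe sets there were higher). On chromosome 1 0 of 3 rose (18.1% of tested probe sets there were higher), and on chromosome 2 0 of 2 (16.9%). On chromosome 13 0 of 2 rose (15.3%), and 0 of 1 on each of chromosomes 8 (18.1%) and 18 (15.2%). On chromosomes 3, 4, 6, 7, 10 and 19 some rose and others did not. The split by chromosome was noticed after the values were seen and was not tested.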
